A study of Mus musculus with 18 samples.

Results

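The genes described here encode the voltage-gated calcium and sodium channels and the TRP and mucolipin cation channels, in beta cells sorted from mouse pancreatic islets. They were taken by symbol: all protein-coding genes of GENCODE release M21 whose symbol starts with Cacna, Cacnb, Cacng, Trpa, Trpc, Trpm, Trpv or Mcoln, or names a sodium channel alpha or beta subunit (Scn followed by a number and a or b). The rule found 67 of the 53090 gene IDs in the count table. A mean level of at least 1 CPM (counts per 1000000 reads) was reached by 32 of them, which are described in detail, and 35 lay under it. The lowest levels inside this limit were 1.26 CPM for Cacnb4, 1.11 for Cacng3 and 1.02 for Cacng4, and the highest outside it were 0.981 for Cacna2d2, 0.850 for Scn4a and 0.660 for Cacng2. The rule also took Trpc4ap, which encodes a protein named for its association with TRPC4 and no channel subunit, and Trpc5os, a gene on the strand opposite Trpc5.

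Mice whose liver lacked the insulin receptor (LIRKO) and controls (Ctrl) were fed chow or HFD, taken here to mean high-fat diet. The deletion is thus in the liver and not in the beta cell. On chow there were 6 Ctrl and 4 LIRKO libraries and on HFD 5 Ctrl and 3 LIRKO libraries, 18 in all. Islets were cultured overnight and dispersed before cells were gated by light scatter and their own fluorescence, so the RNA is that of cells after a night in culture. The labels give no age, sex, strain, batch, length of the diet or pairing, and they do not say which libraries are separate animals. The spread behind each p-value is thus the spread of these libraries, and some of it may be technical.

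Voltage-gated calcium channels turn the electrical activity of the beta cell into calcium entry, which triggers insulin granule release. Each channel has a pore-forming alpha1 subunit (Cacna1 genes) whose surface level and gating are set by an alpha2delta subunit (Cacna2d) and a cytosolic beta subunit (Cacnb). Gamma subunits (Cacng) include a muscle channel subunit and a group that mainly acts as partners of AMPA glutamate receptors. Sodium channels have a pore-forming alpha subunit (Scn genes ending in a) and small membrane-spanning beta subunits (Scn genes ending in b) that alter gating and trafficking, and in beta cells they contribute to the action potential. TRP channels are cation channels opened by calcium, lipids, heat or oxidants rather than mainly by voltage, and TRPM4 and TRPM5 are opened by intracellular calcium and carry sodium inward. The mucolipins (Mcoln genes) are TRP channels of endosomes and lysosomes that release calcium from those organelles.

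Library totals lay between 19490235 and 51714775 reads. Within Ctrl HFD, libraries 1 and 2 held 1.37% and 1.06% of their counts in the nuclear RNA Malat1, against 0.0866% to 0.600% in the other 16. LIRKO chow libraries 1 and 2 were closer to each other than other libraries of one group, with a typical spread of 0.104 in the log2 ratio between them, as were libraries 3 and 4 with 0.121, against 0.196 to 0.869 in the other 32 pairs. Both pairs still differed by more than sampling noise, with a chi-square per degree of freedom of 6.001 and 7.79. That does not show that they came from separate animals, since 2 preparations of 1 animal can also differ beyond sampling noise. They are counted as 4 libraries below, and each pair was also summed into 1 sample as an alternative, as if they were repeats of 2 animals. Beta-cell markers were high in all libraries, with a summed level of 112117 to 210932 CPM over 10 listed genes.

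Markers of other cell types were present at lower levels and moved between libraries. The summed level of 9 alpha-cell markers, led by Gcg, ran on chow from 861 to 1901 CPM in Ctrl and from 863 to 2514 in LIRKO, and on HFD from 808 to 5115 in Ctrl and from 955 to 4669 in LIRKO. Within LIRKO chow it was 874 and 863 in libraries 1 and 2 and 2294 and 2514 in libraries 3 and 4, and within LIRKO HFD it was 955, 3869 and 4669. The summed level of 8 endothelial markers ran on chow from 33.2 to 201 CPM in Ctrl and from 16.8 to 171 in LIRKO, and on HFD from 164 to 306 in Ctrl and from 277 to 331 in LIRKO. The summed level of 5 duct markers did not overlap between genotypes on chow, at 19.7 to 74.0 CPM in Ctrl and 128 to 158 in LIRKO, and was 29.9 to 115 in Ctrl HFD and 55.2 to 161 in LIRKO HFD. Of these 5 genes, 1 was called higher in LIRKO on chow. Of the 9 alpha-cell markers, 2 were called higher in LIRKO on chow, 1 in LIRKO on HFD and 1 with HFD in Ctrl. Of the 8 endothelial markers, 2 were called higher with HFD in Ctrl and 1 with HFD in LIRKO. On chow 1 of 4 PP-cell and 1 of 8 macrophage markers were called lower in LIRKO, with summed levels that overlapped (260 to 1674 CPM in Ctrl and 114 to 382 in LIRKO for PP cells, 143 to 239 and 104 to 218 for macrophages). Of the 10 beta-cell markers, 1 was called lower in LIRKO on chow, 3 with HFD in Ctrl and 1 with HFD in LIRKO. Of 6 delta-cell markers, 1 was called higher in LIRKO on chow and 1 lower with HFD in LIRKO. With HFD in LIRKO, 2 of the 8 macrophage markers were called higher. Between LIRKO chow and LIRKO HFD, several summed levels did not overlap. They were 104 to 218 and 296 to 430 CPM for macrophages, and 504 to 563 and 165 to 295 for delta cells. For 8 stellate and fibroblast markers they were 1.23 to 22.8 and 32.1 to 47.3, and for Schwann and neuronal markers 84.5 to 88.5 and 120 to 125. The endothelial sums above did not overlap either, while the sums of the other cell types did. In this comparison 35.8% of all genes did not overlap. Of 8 Schwann and neuronal markers, 1 was called higher and 1 lower with HFD in Ctrl. Of all genes tested, genotype calls were 5.15% on chow and 0.508% on HFD, and diet calls 9.93% in Ctrl and 2.03% in LIRKO. None of the alpha-cell, endothelial or duct markers was at 0 in all libraries, and 1 of the alpha-cell and 1 of the duct markers were at 0 in some. The part of these cells in the results below was not tested, and in such bulk samples fewer cells of a type and less RNA per cell cannot be told apart.

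Each library's CPM below is the count of a gene divided by the library's total, while log2 changes come from edgeR's quasi-likelihood test fitted to all genes with TMM scaling, and they are given with a standard error (SE). On chow the TMM factors ran from 0.8485 to 1.019 in Ctrl and from 0.9031 to 0.9815 in LIRKO. On HFD they ran from 0.9956 to 1.124 in Ctrl and from 0.9906 to 1.183 in LIRKO. A larger factor lowers the scaled level. Unscaled CPM thus tends to run higher on HFD than the scaled values, and a small diet change can differ in sign between them. Adjusted p-values are those of that test by Benjamini and Hochberg over all 19284 genes tested, and a gene is called at an adjusted p under 0.05. Replicate numbers follow the order of deposition and carry no further meaning.

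Levels per kilobase of exon (CPM per kb) were divided by the merged length of all annotated exons of a gene, whichever isoforms are expressed. Ranks and shares per kb depend on that length. Compared in this way, the auxiliary subunit gene Cacnb3 was the most abundant of the 32, with a mean level of 26.0 ± 7.83 (SD, n = 18). Cacna2d1 followed with 17.0 ± 2.85, then Trpc4ap with 16.3 ± 2.09, a pair whose levels did not differ beyond their spread. Among pore-forming genes, the calcium-activated channel gene Trpm5 had the highest mean over all 18 libraries at 12.4 ± 7.48 CPM per kb, with libraries from 2.56 to 29.4. The L-type calcium channel gene Cacna1d came next with 10.7 ± 2.30. By group mean, Trpm5 was ahead of Cacna1d in Ctrl chow only, at 20.6 against 10.7. Cacna1d was ahead at 11.9 against 11.4 in Ctrl HFD, 10.0 against 7.85 in LIRKO chow and 9.34 against 3.61 in LIRKO HFD. Over all libraries, Cacna1d was above the P/Q-type Cacna1a with 7.32 ± 2.24 and the L-type Cacna1c with 5.54 ± 1.34, and the last pair overlapped. The lysosomal channel gene Mcoln1 (6.37 ± 0.871), the magnesium and calcium channel gene Trpm7 (6.36 ± 1.38) and the TRPC subunit gene Trpc1 (5.98 ± 1.25) had levels per kb that did not differ beyond their spread. Sodium channel pore genes followed, Scn9a with 3.44 ± 0.972, Scn8a with 3.03 ± 0.985 and Scn3a with 2.05 ± 0.936. The R-type calcium channel gene Cacna1e, with a mean of 0.0889 CPM, lay among the 35 under 1 CPM, and was picked out after its level was seen.

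**Figure D1:**
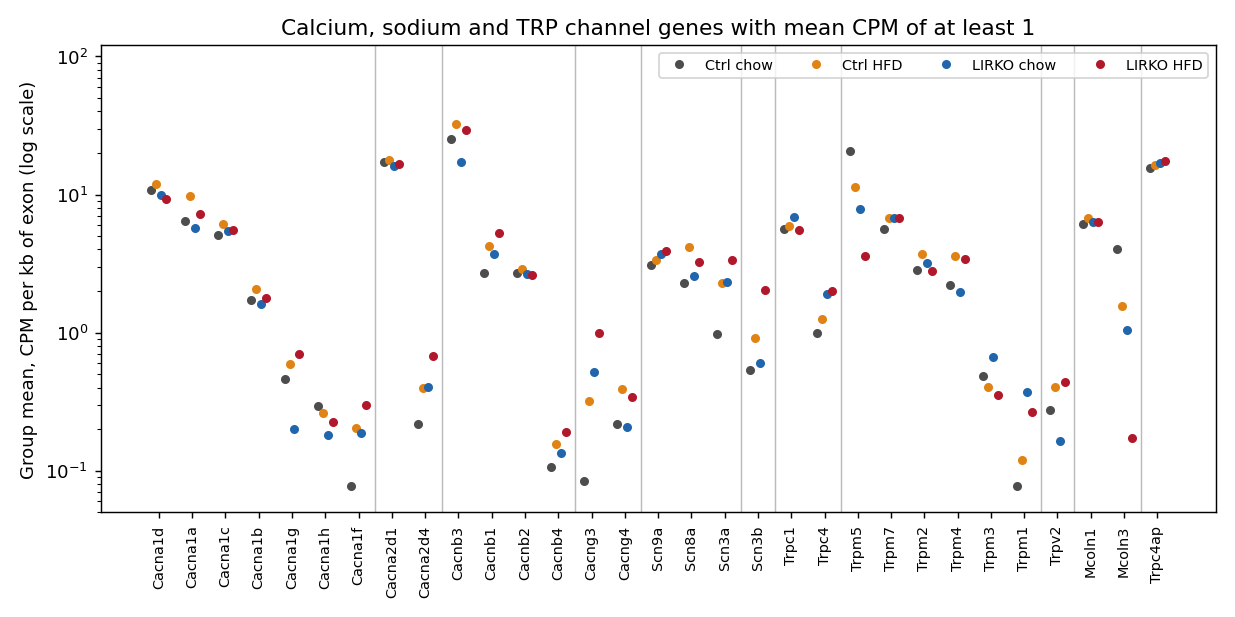
Mean level of 31 of the 32 genes in each of the 4 groups, as CPM per kb of exon on a log scale, ordered by subunit family (grey lines) and by level within it. Each point is a group mean. The points of Cacna2d1, Cacna1c and Mcoln1 lie close together, while those of Mcoln3, Trpm5 and Cacng3 spread widely, with Mcoln3 between 4.04 and 0.172 CPM per kb.

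The spread between groups was uneven over the 32 genes. The ratio of the highest to the lowest group mean in CPM was 23.5 for Mcoln3, 11.8 for Cacng3, 5.71 for Trpm5, 4.81 for Trpm1, 3.86 for Cacna1f, 3.78 for Scn3b, 3.47 for Cacna1g and 3.43 for Scn3a. It was 1.10 for Cacna2d1, 1.10 for Mcoln1, 1.11 for Cacnb2, 1.13 for Trpc4ap and 1.19 for Cacna1c. So the widest and 1 of the narrowest spreads belonged to genes of the same small family, the mucolipins.

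Promoter sequences of 4 genes from this contrast are shown, for the mucolipin pair with unlike spreads (Mcoln3 and Mcoln1) and for a TRP gene that fell (Trpm5) and one that rose (Trpc4) in LIRKO on chow. They are RefSeq sequences of build GRCm38.p6, 5′ to 3′ on the gene's strand, from up to 250 bases before the RefSeq start site, with bases inside annotated exons left off. Of the 67 genes, 54 had an entry in the RefSeq table. The motifs searched on both strands were the E-box CACGTG, which is the core of the motif read by lysosomal gene regulators of the TFEB family, the GC box GGGCGG, the forkhead motif TGTTTAC, the CRE TGACGTCA and the TATA motif TATAAA, and capitals mark their matches.
Mcoln3: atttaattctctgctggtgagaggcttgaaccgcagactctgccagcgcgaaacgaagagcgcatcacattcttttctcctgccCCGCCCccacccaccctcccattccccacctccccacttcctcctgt
Mcoln1: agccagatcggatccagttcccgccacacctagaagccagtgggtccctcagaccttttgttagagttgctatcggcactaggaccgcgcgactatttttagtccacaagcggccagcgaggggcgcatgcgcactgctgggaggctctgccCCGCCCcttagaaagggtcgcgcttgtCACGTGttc
Trpm5: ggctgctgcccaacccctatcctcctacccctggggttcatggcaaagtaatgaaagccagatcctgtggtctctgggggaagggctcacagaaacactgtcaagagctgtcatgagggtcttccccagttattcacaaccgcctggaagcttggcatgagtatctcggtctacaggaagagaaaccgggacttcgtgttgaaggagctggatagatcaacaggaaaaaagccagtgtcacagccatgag
Trpc4: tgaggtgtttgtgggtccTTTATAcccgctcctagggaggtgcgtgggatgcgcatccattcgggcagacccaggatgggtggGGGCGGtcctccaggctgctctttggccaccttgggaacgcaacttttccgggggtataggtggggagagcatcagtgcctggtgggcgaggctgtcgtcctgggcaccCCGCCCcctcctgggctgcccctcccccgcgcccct
The Mcoln3 stretch is chr3:146121541-146121671 on the plus strand, at a RefSeq start site 4341 bases inside the GENCODE gene. It holds 1 GC box and no E-box. The Mcoln1 stretch is chr8:3500269-3500456 on the plus strand and holds 1 GC box and 1 E-box, 71 bases before the start site. A further Mcoln1 E-box, 45 bases before that site, lies in exon 1 of the GENCODE gene and is not printed. The Trpm5 stretch, chr7:143094643-143094892 on the minus strand, holds none of the 5 motifs. The Trpc4 stretch, chr3:54155807-54156034 on the plus strand, holds 2 GC boxes and 1 TATA motif, the latter 232 bases before the start site. Over all 32851 promoters of the table, the full windows of 250 bases held the E-box in 6.02% and the GC box in 32.7%. They held the forkhead motif in 3.17%, the CRE in 1.55% and the TATA motif in 12.4%. The printed stretches of Mcoln3, Mcoln1 and Trpc4 are shorter, at 131, 188 and 228 bases. In the bases left off, the only further match was the Mcoln1 E-box named above. These are matches of letters only and are not shown to be bound.

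In LIRKO against Ctrl on chow, 9 of the 32 genes were called (28.1%), against 5.15% of all genes tested, with 5 higher (all genes 2.95%) and 4 lower (all genes 2.2%). The 5 that rose were Cacng3, Scn3a, Trpc4, Trpm1 and Cacna1f, and the 4 that fell included Mcoln3, Cacna1g and Trpm5. The 2 groups did not overlap in CPM for 10 of the 32, against 12.5% of all genes, and the median log2 change was 0.10 against -0.02 over all genes. In LIRKO against Ctrl on HFD, 3 were called (9.38%), against 0.508% of all genes: Scn3b rose (1 higher, all genes 0.316%), and Mcoln3 was among the 2 that fell (all genes 0.192%). There the groups did not overlap for 8 genes (all genes 4.68%), with a median log2 change of -0.15 against -0.04. The 1 CPM limit was set on the mean of all 18 libraries, so 6 of the 32 had a group mean under it. Cacng3 (0.233 CPM in Ctrl chow) and Cacna1f (0.707) passed it through the groups where they were high, and both are among the calls on chow and for diet in Ctrl. Of all 14320 tested genes over the same limit, 5.69% were called for genotype on chow, 0.615% for genotype on HFD, 10.9% for diet in Ctrl and 2.29% for diet in LIRKO. The counts are a description of the set and are not offered as evidence about it.

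For diet in Ctrl, 7 of the 32 were called (21.9%), against 9.93% of all genes. Of these, 6 rose (all genes 5.57%), namely Scn3a, Cacng3, Scn8a, Cacna1f, Scn3b and Cacnb1, and Mcoln3 alone fell (all genes 4.35%). The groups did not overlap for 8 genes (all genes 3.51%), and the median log2 change was 0.16 against 0.04. For diet in LIRKO, 3 were called (9.38%), against 2.03% of all genes: Scn3b and Cacna1g rose (all genes 1.06%) and Mcoln3 fell (all genes 0.975%). The groups did not overlap for 11 genes, where 35.8% of all genes did not, and the median was -0.11 against 0.03. The comparisons share libraries, so their calls are not independent of each other. Across all 4, 12 of the 32 genes were called at least once, Mcoln3 in 4 comparisons, Scn3b in 3, 5 genes in 2 and 5 in 1, against 14.9% of all genes called at least once, and the other 20 in none, with their lowest adjusted p between 0.0873 (Cacna1a) and 0.777 (Cacna1b). Within LIRKO chow, libraries 3 and 4 were both above libraries 1 and 2 for 8 of the 12 called genes. For the other 4 they were both below. Of all genes tested, 66.5% likewise separated these pairs. Libraries 3 and 4 had the higher alpha-cell marker sums, but other sums separated the pairs too. In libraries 1 to 4, endothelial sums were 16.8, 19.99, 171 and 149 CPM. Macrophage sums were 106, 104, 218 and 196, and stellate and fibroblast sums 1.23, 1.24, 22.8 and 18.9. PP-cell, duct, delta-cell and Schwann and neuronal sums were also higher in libraries 3 and 4. Beta-cell, acinar and T and B cell sums were lower there. Alpha-cell sums set beside single genes thus do not single out that cell type.

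**Figure D2:**
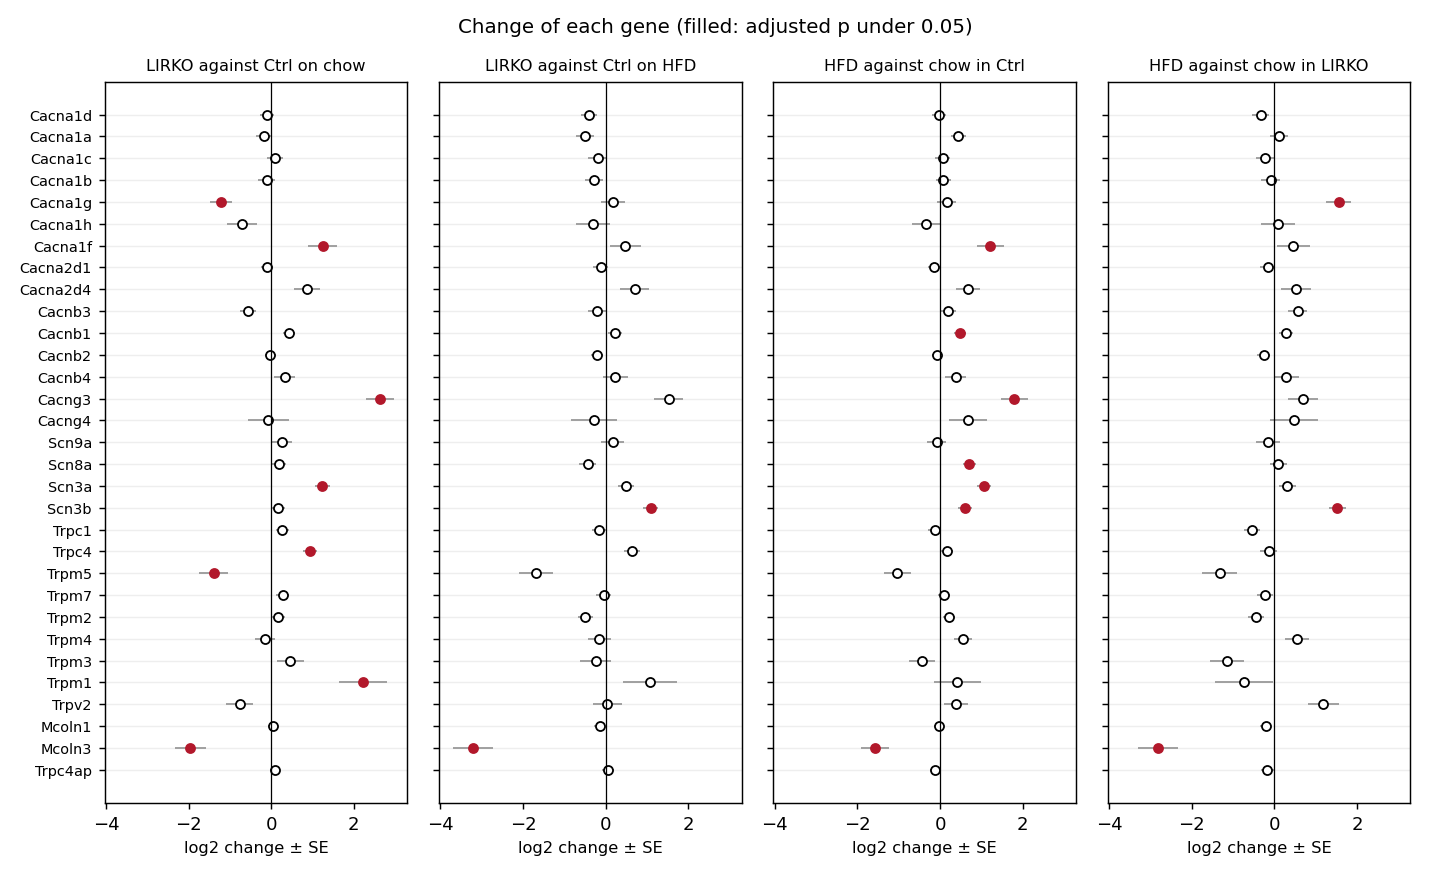
Log2 change ± SE of 31 of the 32 genes in the 4 pairwise comparisons, from edgeR's quasi-likelihood test over all 18 libraries. Filled red points have an adjusted p under 0.05. Mcoln3 is filled and left of 0 in all 4 panels, and Scn3b is filled and right of 0 in 3 panels.

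Mcoln3 encodes mucolipin 3 (TRPML3), a calcium-permeable channel of early endosomes and lysosomes, and lies on chromosome 3 (ENSMUSG00000036853, GRCm38, 146117450 to 146141806, plus strand). It had 10.97 to 20.1 CPM (median 12.5) in the 6 Ctrl chow libraries. In Ctrl HFD it had 1.49, 3.47, 9.38, 4.30 and 8.53 CPM, in LIRKO chow 4.23, 4.64, 2.73 and 2.93, and in LIRKO HFD 0.604, 0.644 and 0.543. Every Ctrl chow library was above every library of the other groups, and every LIRKO HFD library was below all others. In Ctrl HFD the endothelial marker sums were 294, 306, 186, 246 and 164 CPM. Libraries 1, 2 and 4, with the highest, had the least Mcoln3. In LIRKO chow they were 16.8, 19.99, 171 and 149 CPM, higher in the libraries with less Mcoln3. LIRKO HFD had 300, 331 and 277 CPM, with most Mcoln3 at the highest sum. LIRKO chow 1 and 2 had less Mcoln3 than all of Ctrl chow, at lower sums (Ctrl chow 33.2 to 201 CPM). What part these cells play was not tested. The gene was 3.88-fold lower in LIRKO on chow (log2 change -1.95, SE 0.38, adjusted p = 0.00463) and 9.29-fold lower in LIRKO on HFD (-3.22, SE 0.48, adjusted p = 0.00529). HFD lowered it 2.96-fold in Ctrl (log2 change -1.56, SE 0.34, adjusted p = 0.0279) and 7.09-fold in LIRKO (-2.83, SE 0.49, adjusted p = 0.00811). The alternatives kept the direction in all 4 comparisons but not every call. With the LIRKO chow pairs summed, the adjusted p was 0.106 for genotype on chow, 0.0551 for diet in Ctrl and 0.0895 for diet in LIRKO, and 0.0135 for genotype on HFD. Without LIRKO HFD library 2 or 3 it was 0.0502 and 0.0593 for genotype on HFD and 0.0594 and 0.0584 for diet in LIRKO, and from those 2 groups alone it was 0.149 for genotype on HFD. For diet in Ctrl it was 0.109 without Ctrl HFD libraries 1 and 2, 0.102 from the 2 groups alone, and 0.0623, 0.0725 and 0.0695 without Ctrl chow 1, Ctrl chow 6 and Ctrl HFD 2.

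Mcoln1, which encodes the main lysosomal mucolipin (TRPML1), stayed in a narrow range beside it. Its mean level was 46.3 ± 6.91 CPM in Ctrl chow (SD, n = 6), 47.4 ± 0.897 in LIRKO chow (n = 4), 51.1 ± 8.96 in Ctrl HFD (n = 5) and 47.9 ± 7.35 in LIRKO HFD (n = 3). Its libraries ran from 33.9 to 54.4 CPM (median 47.4) in Ctrl chow, and were at 48.6, 47.4, 46.5 and 47.1 in LIRKO chow, 44.5, 39.3, 60.5, 53.1 and 57.8 in Ctrl HFD and 39.5, 52.7 and 51.7 in LIRKO HFD. All groups overlapped, and its log2 changes lay between -0.21 (SE 0.13) and 0.03 (SE 0.11), none of them called. As a description, the share of Mcoln3 in the summed CPM per kb of Mcoln1 and Mcoln3 was 39.5% ± 6.06 in Ctrl chow, 14.2% ± 3.04 in LIRKO chow, 17.5% ± 7.57 in Ctrl HFD and 2.69% ± 0.500 in LIRKO HFD. Mcoln2, the third member of the family and a neighbour of Mcoln3 on chromosome 3, was at 0 to 0.275 CPM in the libraries, with a mean of 0.0684, and was not tested.

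Trpm5, on chromosome 7 (ENSMUSG00000009246, 143069153 to 143094642, minus strand), encodes a sodium-permeable channel opened by intracellular calcium that is best known from taste cells and is also found in beta cells. Its level was 105 to 188 CPM (median 119) in Ctrl chow. It was 88.6, 86.6, 54.3, 39.0 and 95.5 CPM in Ctrl HFD, 71.7, 71.4, 30.0 and 27.8 in LIRKO chow and 31.9, 20.9 and 16.4 in LIRKO HFD. All 12 libraries outside Ctrl chow were below the lowest Ctrl chow library, and within LIRKO chow the levels of libraries 3 and 4 were well below those of libraries 1 and 2. Trpm5 fell 2.63-fold in LIRKO on chow (log2 change -1.40, SE 0.35, adjusted p = 0.0276). The other changes were not called: -1.69 (SE 0.41, adjusted p = 0.0827) for genotype on HFD, -1.03 (SE 0.32, adjusted p = 0.0504) for diet in Ctrl and -1.33 (SE 0.42, adjusted p = 0.111) for diet in LIRKO. DESeq2 gave adjusted p-values of 0.00259, 0.0185 and 0.0313 for these 3. The chow call was lost with the LIRKO chow pairs summed (0.211) and without LIRKO chow 3 (0.115), LIRKO chow 4 (0.129) or Ctrl chow 6 (0.0628). The libraries with the lower Trpm5 levels (3 and 4 in Ctrl HFD and LIRKO chow, 2 and 3 in LIRKO HFD) had the higher summed alpha-cell markers within each group, and their part was not tested. Of the exon bases of Trpm5, 3.4% overlap the gene Tssc4 on the other strand, and whether counting used strand is not given in the sources used here.

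Its closest relative Trpm4, which encodes another calcium-activated sodium-permeable channel, was not called in any comparison. Trpm4 had 18.6 to 36.3 CPM (median 21.3) in Ctrl chow, 21.7, 20.2, 23.0 and 21.03 in LIRKO chow and 50.9, 60.5, 24.1, 30.1 and 28.4 in Ctrl HFD. The 3 LIRKO HFD libraries, at 34.8, 42.2 and 33.0 CPM, were above the 4 of LIRKO chow, but the change was not called (log2 0.55, SE 0.29, adjusted p = 0.342). The share of Trpm5 in the summed CPM per kb of Trpm4 and Trpm5 was 90.2% ± 2.24 in Ctrl chow, 77.1% ± 9.41 in LIRKO chow, 75.7% ± 6.60 in Ctrl HFD and 50.7% ± 8.79 in LIRKO HFD.

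**Figure D3:**
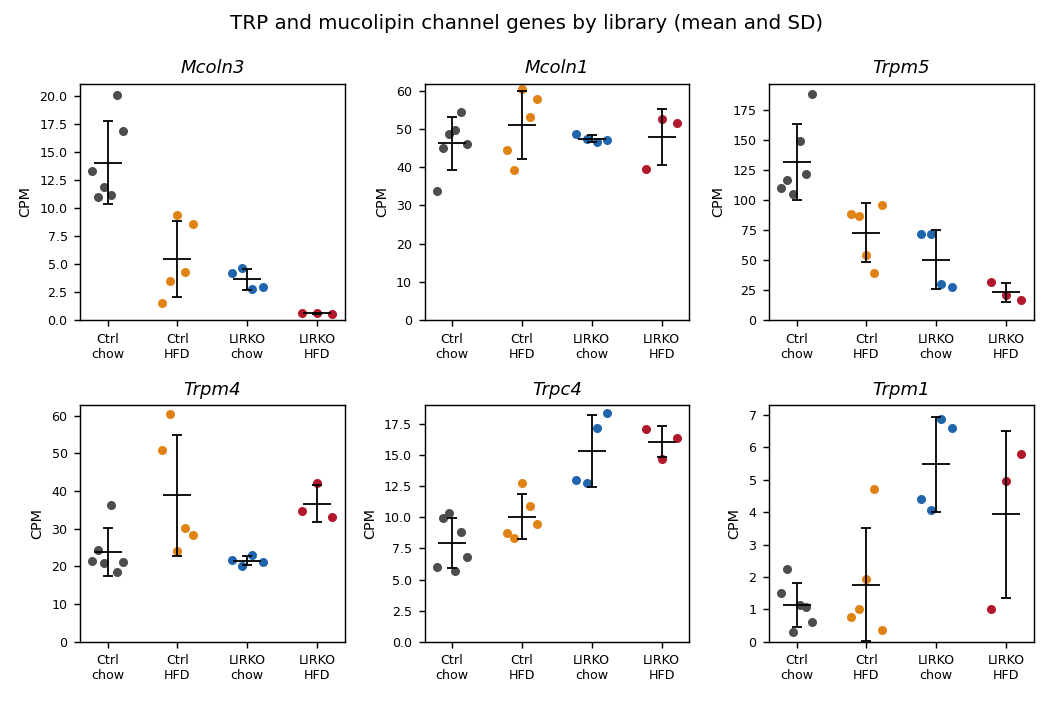
Level in CPM of 6 TRP and mucolipin genes in each library by group, with the group mean and SD (bars). Each panel has its own axis from 0. Mcoln3 and Trpm5 are highest in Ctrl chow and lowest in LIRKO HFD, while Mcoln1 overlaps in all groups and Trpc4 is higher in both LIRKO groups than in the Ctrl group on the same diet.

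Trpc4 encodes a receptor-operated calcium-permeable channel and was higher in LIRKO. It had 5.72 to 10.4 CPM (median 7.83) in Ctrl chow, 8.77, 8.34, 12.8, 10.9 and 9.47 in Ctrl HFD, 13.0, 12.7, 17.2 and 18.4 in LIRKO chow and 17.1, 14.7 and 16.4 in LIRKO HFD. On each diet all LIRKO libraries were above all Ctrl libraries. Trpc4 rose 1.91-fold on chow (log2 change 0.93, SE 0.17, adjusted p = 0.00317). The value on HFD was 0.64 (SE 0.19, adjusted p = 0.212), and the diet values were 0.16 (SE 0.16) in Ctrl and -0.13 (SE 0.20) in LIRKO, none of them called. With the LIRKO chow pairs summed the chow change was again 0.93 with an adjusted p of 0.0578. Within LIRKO chow, Trpc4 was higher in the 2 libraries with more alpha-cell marker RNA, but within LIRKO HFD it was highest in the library with the least, and the part of these cells was not tested. Trpc1, which encodes a subunit that assembles with other TRPC proteins, had 33.9 to 59.0 CPM (median 43.9) in Ctrl chow, 51.7, 48.6, 58.1 and 62.7 in LIRKO chow, 38.8, 33.02, 51.8, 67.1 and 46.3 in Ctrl HFD and 32.97, 47.3 and 52.9 in LIRKO HFD. Its groups overlapped and it was not called, and the group means of Trpc4ap ran from 135.9 to 153.1.

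Trpm1 encodes a channel best known from melanocytes and retinal bipolar cells, and it was scarce. Its level was 0.289 to 2.24 CPM (median 1.10) in Ctrl chow. In LIRKO chow it was 4.39, 4.05, 6.88 and 6.60 CPM, all above the Ctrl chow range. It was 0.770, 1.02, 1.93, 4.71 and 0.368 CPM in Ctrl HFD and 1.01, 4.97 and 5.80 in LIRKO HFD, so these groups overlapped. Trpm1 rose 4.67-fold in LIRKO on chow (log2 change 2.22, SE 0.59, adjusted p = 0.0333), a call lost with the pairs summed (0.217) and without any of Ctrl chow 3, 4, 5 or 6 or LIRKO chow 1, 2, 3 or 4 (0.0522 to 0.102). Ctrl HFD 4 and LIRKO HFD 2 and 3, the HFD libraries with the most Trpm1, were among the 4 with the highest summed alpha-cell markers of the 18. The other of these, Ctrl HFD 3, had 1.93 CPM of Trpm1. LIRKO chow 1 and 2, at 4.39 and 4.05 CPM of Trpm1, had alpha-cell sums of 874 and 863 CPM. Those of Ctrl chow were 861 to 1901 CPM. The part of these cells was not tested.

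The other TRPM genes at this level gave no call. Trpm7, which joins a magnesium and calcium channel to a kinase, had 45.2 to 89.8 CPM (median 55.1) in Ctrl chow, 77.1, 66.9, 77.6 and 85.3 in LIRKO chow, 62.0, 52.5, 94.0, 83.2 and 88.6 in Ctrl HFD and 61.0, 76.9 and 91.0 in LIRKO HFD, with all groups overlapping. Trpm2, a calcium-permeable channel opened by ADP-ribose and oxidants, had 21.1 to 45.4 CPM (median 37.6) in Ctrl chow, 39.0, 37.2, 40.8 and 42.9 in LIRKO chow, 53.4, 45.8, 40.7, 40.7 and 51.2 in Ctrl HFD and 25.0, 40.6 and 38.5 in LIRKO HFD. The HFD groups did not overlap, with a log2 change of -0.49 (SE 0.18) and an adjusted p of 0.423. Trpm3, a channel opened by heat and steroids, had a mean of 16.3 ± 2.82 CPM in LIRKO chow (SD, n = 4) and 8.58 ± 2.29 in LIRKO HFD (n = 3), also without overlap (log2 -1.15, SE 0.40, adjusted p = 0.154). Trpv2, a calcium-permeable channel of the vanilloid family and the sole Trpv gene over 1 CPM, was at 0.890 to 1.65 CPM (median 1.19) in Ctrl chow, 1.74, 1.85, 2.43, 2.16 and 0.935 in Ctrl HFD, 0.800, 0.248, 0.889 and 1.02 in LIRKO chow and 1.52, 2.09 and 2.26 in LIRKO HFD. Its LIRKO groups did not overlap, but the diet change was not called (log2 1.18, SE 0.37, adjusted p = 0.111).

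Among the sodium channel genes, the pore gene Scn3a rose in LIRKO on chow and with HFD in Ctrl, and the beta subunit gene Scn3b was highest in LIRKO on HFD. Scn9a, another pore gene, had 21.5 to 58.5 CPM (median 38.5) in Ctrl chow and 41.7, 41.3, 50.6 and 57.1 in LIRKO chow. On HFD it had 26.2, 27.4, 64.0, 54.8 and 41.8 CPM in Ctrl and 42.5, 43.5 and 63.1 in LIRKO. It was not called in any comparison, with log2 changes from -0.16 (SE 0.29) to 0.25 (SE 0.25).

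Scn3a encodes Nav1.3 and lies on chromosome 2 (ENSMUSG00000057182, 65457118 to 65567627, minus strand). It had 9.05 to 18.8 CPM (median 11.4) in Ctrl chow. In Ctrl HFD it had 30.8, 32.8, 23.8, 34.02 and 21.9 CPM, in LIRKO chow 25.0, 24.9, 31.2 and 35.6, and in LIRKO HFD 36.1, 45.2 and 45.2. All 12 libraries outside Ctrl chow were above the highest Ctrl chow library, and all LIRKO HFD libraries were above those of the other groups. The rise in LIRKO on chow was 2.36-fold (log2 change 1.24, SE 0.18, adjusted p = 0.000477) and stayed called under all 24 alternatives. HFD in Ctrl raised it 2.08-fold (1.06, SE 0.17, adjusted p = 0.00883), which was lost without Ctrl HFD libraries 1 and 2 (0.0627) and from the 2 groups alone (0.0738). The changes of 0.49 (SE 0.20, adjusted p = 0.512) for genotype on HFD and 0.31 (SE 0.21, adjusted p = 0.464) for diet in LIRKO were not called. Within LIRKO chow and LIRKO HFD, Scn3a was higher in the libraries with more alpha-cell marker RNA. Ctrl HFD 3 and 4, the richest of their group in such RNA, had 23.8 and 34.02 CPM of Scn3a. The other Ctrl HFD libraries had 21.9 to 32.8 CPM. The part of these cells was not tested.

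Scn8a, which encodes Nav1.6, had 22.9 to 49.96 CPM (median 36.0) in Ctrl chow. In Ctrl HFD it had 83.5, 66.4, 62.3, 53.8 and 61.6 CPM, all higher. It was 40.1, 35.1, 41.9 and 45.7 CPM in LIRKO chow and 38.4, 59.5 and 54.9 in LIRKO HFD. HFD in Ctrl raised it 1.64-fold (log2 change 0.71, SE 0.16, adjusted p = 0.0309). That call was lost without Ctrl HFD libraries 1 and 2 (0.158), with the LIRKO chow pairs summed (0.0607), from the 2 groups alone (0.102) and without any of Ctrl chow 1, 2 or 6 or Ctrl HFD 1 or 2 (0.0630 to 0.0931). Of the summed CPM per kb of Scn3a, Scn8a and Scn9a, the share of Scn3a was 15.4% ± 2.54 in Ctrl chow, 27.0% ± 0.974 in LIRKO chow, 23.6% ± 4.84 in Ctrl HFD and 32.4% ± 1.96 in LIRKO HFD.

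Scn3b encodes the beta3 subunit (chromosome 9, ENSMUSG00000049281, 40269217 to 40291618, plus strand). It had 2.26 to 3.86 CPM (median 2.82) in Ctrl chow, 4.31, 5.74, 5.25, 5.70 and 3.97 in Ctrl HFD, 2.58, 3.08, 3.69 and 3.88 in LIRKO chow and 8.19, 12.4 and 12.8 in LIRKO HFD. The chow groups overlapped, Ctrl HFD was above Ctrl chow, and LIRKO HFD was above all other libraries. HFD raised it 2.87-fold in LIRKO (log2 change 1.52, SE 0.20, adjusted p = 0.00229) and 1.52-fold in Ctrl (0.60, SE 0.16, adjusted p = 0.0384). On HFD it was 2.13-fold higher in LIRKO than in Ctrl (1.09, SE 0.19, adjusted p = 0.0123), against 0.17 (SE 0.17, adjusted p = 0.655) on chow. The LIRKO diet call was lost with the chow pairs summed (0.0554), and the HFD genotype call from the 2 groups alone (0.190) and without LIRKO HFD 2 (0.0845) or 3 (0.117). The Ctrl diet call was lost under 12 of 24 alternatives, among them without Ctrl HFD 1 and 2 (0.156) and without any of Ctrl chow 1, 2, 5 or 6, Ctrl HFD 1 or 2, LIRKO chow 3 or LIRKO HFD 3 (0.0503 to 0.0952). Within LIRKO chow and LIRKO HFD, Scn3b was higher in the libraries with more alpha-cell marker RNA. Ctrl HFD 3 and 4, the richest of their group in such RNA, had 5.25 and 5.70 CPM of Scn3b. The other Ctrl HFD libraries had 3.97 to 5.74 CPM. The part of these cells was not tested.

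**Figure D4:**
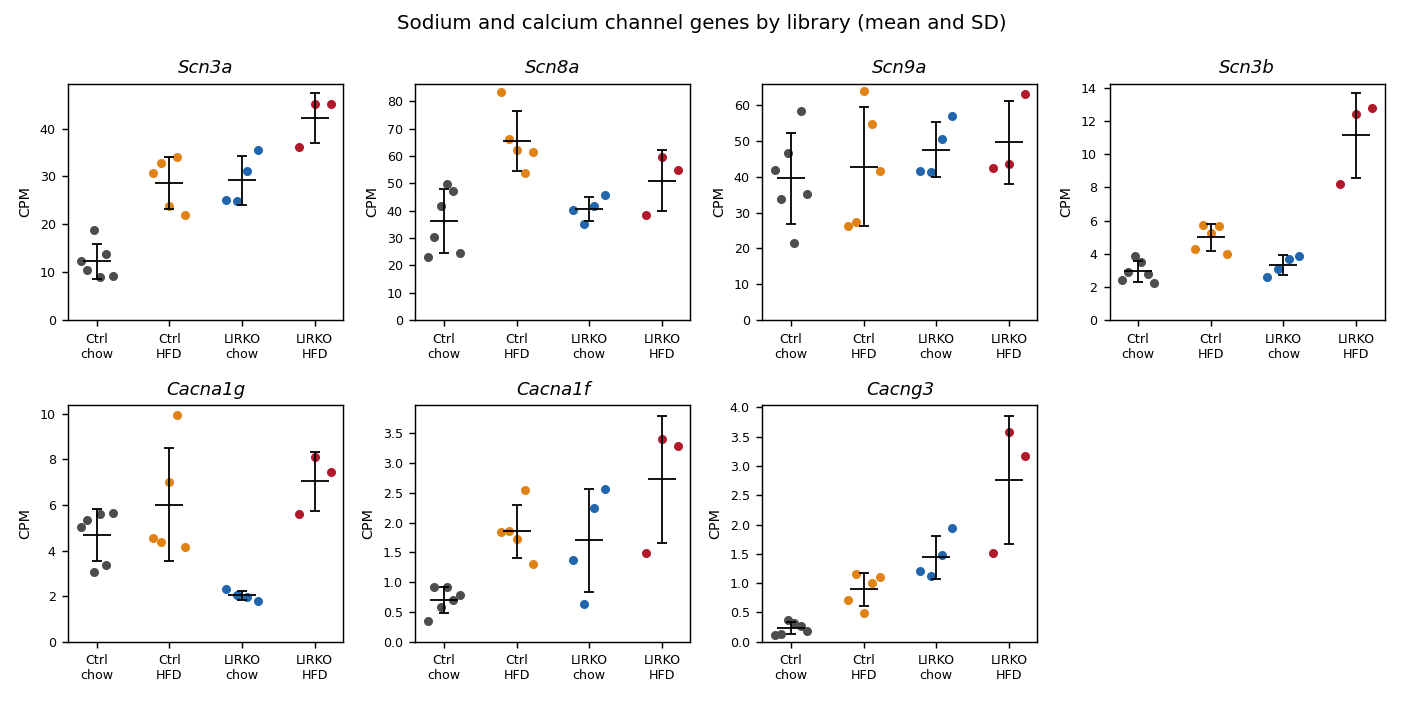
Level in CPM of 4 sodium and 3 calcium channel genes in each library by group, with the group mean and SD (bars). Each panel has its own axis from 0. Scn3a is lowest in Ctrl chow, and Scn3b and Cacng3 have their highest mean in LIRKO HFD.

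**Figure D5:**
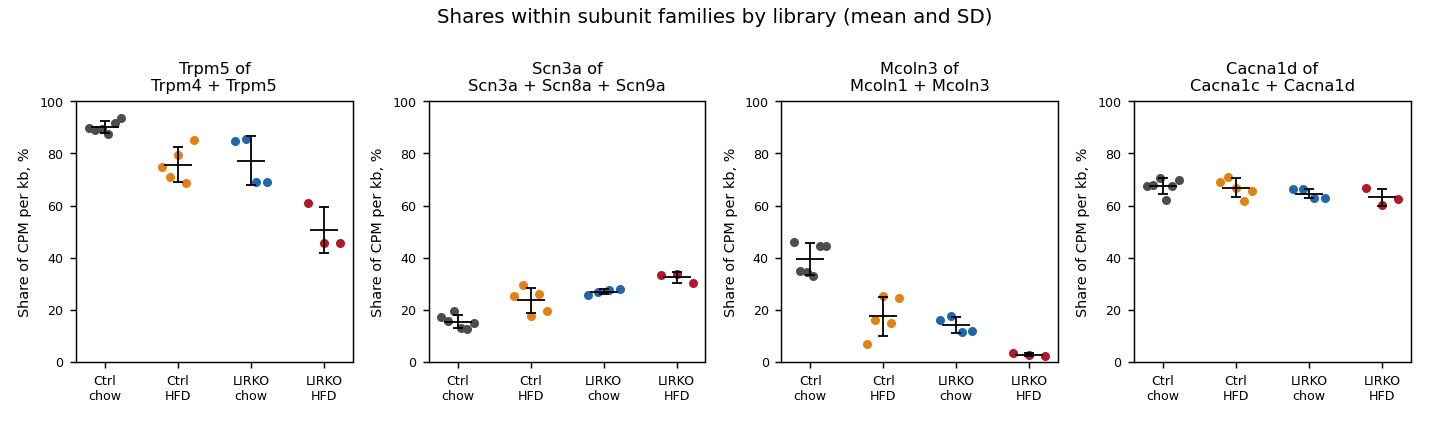
Shares within subunit families, as percent of summed CPM per kb of exon, in each library by group with the mean and SD (bars). The Mcoln3 share falls from a mean of 39.5% in Ctrl chow to 2.69% in LIRKO HFD, and the Trpm5 share goes from 90.2% to 50.7%. These shares are descriptions without a test.

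The main calcium channel pore genes gave no call. Cacna1d and Cacna1c, which encode the L-type channels Cav1.3 and Cav1.2, overlapped in all groups. Cacna1d had 87.8 to 180.8 CPM (median 131.1) in Ctrl chow, 131.1, 126.8, 116.3 and 130.8 in LIRKO chow, 142.1, 103.5, 183.0, 158.7 and 166.0 in Ctrl HFD and 88.8, 123.0 and 141.8 in LIRKO HFD. Cacna1c had 71.0 to 147.2 CPM (median 111.8) in Ctrl chow, 112.6, 108.0, 114.6 and 129.5 in LIRKO chow, 106.4, 70.8, 154.1, 165.7 and 146.4 in Ctrl HFD and 74.4, 136.7 and 142.1 in LIRKO HFD. Their log2 changes ran from -0.41 (SE 0.20) to -0.03 (SE 0.16) for Cacna1d and from -0.22 (SE 0.24) to 0.10 (SE 0.20) for Cacna1c. Cacna1d made up 63.2% ± 3.31 to 67.5% ± 2.93 of their summed CPM per kb in the 4 groups. That share depends strongly on the exon lengths used, 12621 bases for Cacna1d and 21191 for Cacna1c. Without division by length, their mean levels were 134.7 and 117.4 CPM over all libraries and 117.9 and 117.8 in LIRKO HFD. Cacna1a, the P/Q-type pore gene, had 47.4 to 98.4 CPM (median 73.5) in Ctrl chow, 149.4, 121.2, 83.7, 88.3 and 113.5 in Ctrl HFD, 71.04, 60.9, 61.8 and 66.3 in LIRKO chow and 77.7, 82.02 and 86.5 in LIRKO HFD. The Ctrl groups overlapped, with a diet change of 0.45 on the log2 scale (SE 0.17, adjusted p = 0.0873). The N-type gene Cacna1b (group means 15.9 to 20.6 CPM) was not called. Nor was the T-type gene Cacna1h, with 1.70 to 5.44 CPM (median 2.32) in Ctrl chow, 1.33, 0.901, 2.55 and 2.29 in LIRKO chow, 2.31, 1.76, 2.59, 4.26 and 1.96 in Ctrl HFD and 1.29, 2.47 and 2.83 in LIRKO HFD.

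Cacna1g, which encodes the low-voltage-activated T-type channel Cav3.1 (chromosome 11, ENSMUSG00000020866, 94408391 to 94474198, minus strand), moved in opposite directions with genotype on chow and with diet in LIRKO. It had 3.07 to 5.67 CPM (median 5.18) in Ctrl chow and 4.57, 4.40, 7.01, 9.96 and 4.17 in Ctrl HFD. In LIRKO it had 2.31, 2.07, 1.95 and 1.80 CPM on chow and 5.61, 8.09 and 7.46 on HFD. LIRKO chow was below all other libraries, while LIRKO HFD overlapped Ctrl HFD. Cacna1g fell 2.34-fold in LIRKO on chow (log2 change -1.23, SE 0.27, adjusted p = 0.0115) and rose 2.94-fold with HFD in LIRKO (1.56, SE 0.30, adjusted p = 0.0161). The value was 0.17 (SE 0.29, adjusted p = 0.928) for genotype on HFD and 0.16 (SE 0.24, adjusted p = 0.656) for diet in Ctrl. Both calls rest on the LIRKO chow group and were lost with its pairs summed (0.175 and 0.201). The chow call was also lost without LIRKO chow 3 (0.0506) or 4 (0.0502), and the diet call without LIRKO chow 1 (0.0529) or 2 (0.0579) or LIRKO HFD 2 (0.0761) or 3 (0.0619).

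Cacna1f, an L-type pore gene known from the retina, was low throughout. It had 0.341 to 0.921 CPM (median 0.742) in Ctrl chow, 1.85, 1.85, 1.73, 2.54 and 1.30 in Ctrl HFD, 1.37, 0.630, 2.24 and 2.56 in LIRKO chow and 1.49, 3.40 and 3.29 in LIRKO HFD. The Ctrl groups did not overlap, but LIRKO chow 2 lay within the Ctrl chow range. It rose 2.37-fold in LIRKO on chow (log2 change 1.24, SE 0.34, adjusted p = 0.0414) and 2.33-fold with HFD in Ctrl (1.22, SE 0.33, adjusted p = 0.0384), each lost under 12 of 24 alternatives. For the chow call these were the unfiltered table (0.0572), the pairs summed (0.183) and the omission of Ctrl chow 1, 3, 4, 5 or 6, LIRKO chow 1, 3 or 4, or LIRKO HFD 2 or 3 (0.0522 to 0.182). For the diet call they included the omission of Ctrl HFD 1 and 2 together (0.156) and of Ctrl chow 1, 2, 3, 5 or 6, Ctrl HFD 1 or 2, or LIRKO HFD 3 (0.0503 to 0.101). The libraries of LIRKO chow and LIRKO HFD with more Cacna1f were also those with more alpha-cell marker RNA. Ctrl HFD 3 and 4, the richest of their group in such RNA, had 1.73 and 2.54 CPM of Cacna1f. The other Ctrl HFD libraries had 1.30 to 1.85 CPM. The part of these cells was not tested.

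Cacng3, which encodes an AMPA receptor partner of the gamma family (chromosome 7, ENSMUSG00000066189, 122670492 to 122769393, plus strand), rose in LIRKO on chow and with HFD in Ctrl. It had 0.114 to 0.367 CPM (median 0.232) in Ctrl chow, 0.718, 1.16, 0.499, 0.996 and 1.11 in Ctrl HFD, 1.21, 1.13, 1.49 and 1.94 in LIRKO chow and 1.52, 3.58 and 3.17 in LIRKO HFD. All 12 libraries outside Ctrl chow were above its range, and on HFD all LIRKO libraries were above all Ctrl libraries. Its group means in Ctrl chow (0.233 CPM) and Ctrl HFD (0.895) were under the 1 CPM limit, which it passed only through its LIRKO groups. The changes from Ctrl chow thus start from very few reads. Cacng3 was 6.19-fold higher in LIRKO on chow (log2 change 2.63, SE 0.33, adjusted p = 0.000175), a call kept under all 24 alternatives, and 3.47-fold higher with HFD in Ctrl (1.80, SE 0.32, adjusted p = 0.0150). The diet call was lost without Ctrl HFD 1 and 2 (0.0627) and from the 2 groups alone (0.0902). On HFD the genotype change of 1.53 (SE 0.35) was not called by edgeR (adjusted p = 0.0577) but was by DESeq2 (0.00216), and by edgeR without Ctrl chow 1 (0.0494), Ctrl HFD 2 (0.0439) or LIRKO HFD 1 (0.0380). Within LIRKO chow and LIRKO HFD, the libraries with more Cacng3 had more alpha-cell marker RNA. Ctrl HFD 3 and 4, the richest of their group in such RNA, had 0.499 and 0.996 CPM of Cacng3. The other Ctrl HFD libraries had 0.718 to 1.16 CPM. The part of these cells was not tested. Cacng4, the other gamma gene over 1 CPM, was not called.

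Among the beta subunits, Cacnb3 supplied 72.4% ± 3.68 to 81.6% ± 3.22 of the summed CPM per kb of the 4 Cacnb genes. The exon lengths used were 4010 bases for Cacnb3 and 13228 for Cacnb2, with mean levels of 104.2 and 36.1 CPM. Cacnb3 had 81.3 to 143 CPM (median 91.6) in Ctrl chow and 70.1, 74.5, 65.4 and 64.1 in LIRKO chow. It had 156.6, 177.4, 94.5, 107.9 and 109.7 CPM in Ctrl HFD and 119.5, 126.3 and 106.3 in LIRKO HFD. LIRKO chow was below all other libraries, but no change was called over the 4 groups (log2 -0.56, SE 0.19, adjusted p = 0.115 for genotype on chow). It was called from the 2 chow groups alone (0.0343) and without Ctrl HFD 1 and 2 (0.0196). Cacnb1 rose 1.40-fold with HFD in Ctrl, from 8.98 to 16.3 CPM in Ctrl chow (median 11.6) to 18.7, 16.5, 20.2, 23.1 and 18.4 in Ctrl HFD (log2 change 0.48, SE 0.14, adjusted p = 0.0436). This call was lost under 17 of 24 alternatives, including without Ctrl HFD 1 and 2 (0.143) and without any of Ctrl chow 1, 2, 3 or 6, Ctrl HFD 1, 2 or 4, all 4 LIRKO chow libraries in turn and LIRKO HFD 2 or 3 (0.0520 to 0.109). Cacnb1 had 14.1, 15.7, 17.96 and 19.1 CPM in LIRKO chow and 15.1, 29.02 and 27.7 in LIRKO HFD. Cacnb2, which had 30.2 to 44.9 CPM (median 33.0) in Ctrl chow, 32.6, 31.7, 36.04 and 40.9 in LIRKO chow, 31.9, 29.6, 46.04, 43.8 and 39.9 in Ctrl HFD and 27.2, 34.6 and 41.5 in LIRKO HFD, overlapped in all groups. Neither it nor Cacnb4 (group means 0.960 to 1.71 CPM) was called.

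The alpha2delta gene Cacna2d1 had the highest CPM of the whole set, with 149.8 to 285.6 (median 199.8) in Ctrl chow, 199.1, 189.1, 194.9 and 218.2 in LIRKO chow, 186.9, 180.9, 271.4, 220.4 and 237.7 in Ctrl HFD and 216.7, 181.2 and 222.0 in LIRKO HFD. All groups overlapped, and its log2 changes lay between -0.16 (SE 0.18) and -0.10 (SE 0.15). Cacna2d4 had a mean of 2.07 ± 0.851 CPM in Ctrl chow (SD, n = 6), 3.84 ± 0.643 in LIRKO chow (n = 4), 3.77 ± 1.42 in Ctrl HFD (n = 5) and 6.45 ± 1.20 in LIRKO HFD (n = 3). Its LIRKO chow libraries, at 3.38, 3.24, 4.14 and 4.604 CPM, were all above the Ctrl chow libraries, which reached 3.10, without a call (log2 0.86, SE 0.31, adjusted p = 0.130).

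Of the 35 genes under 1 CPM, 17 passed the filter on low counts and were tested, and 18 were not. Being tested can depend on the group where a gene is high, so nothing is read from their number. Cacna2d2, an alpha2delta gene, had 0.752 to 1.68 CPM in Ctrl chow and 0.526, 0.428, 0.812 and 0.700 in LIRKO chow, and fell (log2 change -1.08, SE 0.25, adjusted p = 0.0184). That call was lost with the pairs summed (0.213), without the filter (0.0898) and without LIRKO chow 1 (0.0674), 2 (0.0693) or 4 (0.0565). With HFD in Ctrl, 2 vanilloid channel genes were called. Trpv4, an osmosensitive channel gene, rose by 1.13 on the log2 scale (SE 0.32, adjusted p = 0.0412) and Trpv1, the capsaicin receptor gene, by 2.27 (SE 0.66, adjusted p = 0.0436), from group means of 0.179 and 0.0747 CPM to 0.449 and 0.419. For Trpv1, Ctrl HFD 1 had 1.08 CPM and the other 4 libraries of that group 0.166 to 0.312, and the log2 change was 1.60 without Ctrl HFD 1, 1.66 without Ctrl HFD 1 and 2 and 2.90 without Ctrl chow 6. Each of these calls was lost without Ctrl HFD 1 and 2 (0.0930 and 0.196), with the pairs summed (0.0685 and 0.0703), without the filter (0.0951 and 0.0641), and on leaving out 12 and 13 of the 18 libraries in turn (Trpv4 0.0505 to 0.0992, Trpv1 0.0511 to 0.152). Those libraries included Ctrl chow 1, 2, 5 and 6, Ctrl HFD 1 and 2, LIRKO chow 1 and 3 and LIRKO HFD 2 and 3 for both genes, with Ctrl HFD 3 and 4 for Trpv4 and Ctrl chow 3 and LIRKO chow 2 and 4 for Trpv1. Cacng6, Cacng7 and Cacng8 had no read in any library, and a count of 0 allows up to 3 reads, or 0.154 CPM in the smallest library.

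Around these channels, a list of 68 genes of calcium handling (store release and entry, pumps and exchangers, mitochondrial uptake, calmodulins, channel regulators) held 59 tested genes. In LIRKO on chow 3 rose and 2 fell, which is 8.47% of the list against 5.15% of all genes. Saraf, which encodes an inhibitor of store-operated calcium entry, went from 447.3 ± 39.0 CPM in Ctrl chow (SD, n = 6) to 687.8 ± 24.7 in LIRKO chow (n = 4), a log2 change of 0.61 (SE 0.12, adjusted p = 0.00724). Itpr1, the gene of a calcium release channel of the endoplasmic reticulum, went from 68.5 ± 22.7 to 29.5 ± 3.63 CPM (-1.23, SE 0.25, adjusted p = 0.00754). Both calls were lost with the pairs summed (0.108 and 0.148). Fgf12, which encodes a sodium channel partner, rose by 0.53 (SE 0.13, adjusted p = 0.0280), Pkd2l1 by 1.68 (SE 0.43, adjusted p = 0.0288), and Stac2 fell by 2.01 (SE 0.40, adjusted p = 0.00582). Pkd2l1 and Stac2 were scarce, at 0.290 and 0.596 CPM on average. With the pairs summed these calls were lost too (0.259, 0.201 and 0.107). The Fgf12 call was also lost without the filter (0.0659) and without Ctrl chow 2, 4 or 6 or any LIRKO chow library (0.0510 to 0.0799), and the Pkd2l1 call without Ctrl chow 1, 2, 3, 5 or 6 or any LIRKO chow library (0.0549 to 0.0756).

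On HFD 1 gene of the list (1.69%, all genes 0.508%) was called for genotype, and it fell. It was Tpcn1, which encodes a 2-pore cation channel of endosomes and lysosomes, with 81.7 ± 6.08 CPM in Ctrl HFD (SD, n = 5) and 49.2 ± 3.38 in LIRKO HFD (n = 3). Its log2 change was -0.79 (SE 0.15, adjusted p = 0.0192), against -0.44 (SE 0.13, adjusted p = 0.0585) on chow. The HFD call was lost with the LIRKO chow pairs summed (0.0545), from the 2 groups alone (0.137) and without Ctrl HFD 5 (0.0569) or LIRKO HFD 1 (0.0536), 2 (0.127) or 3 (0.137). For diet in Ctrl, 5 of the list rose (Slc8b1, Slc8a3, Ano1, Rrad and Cabp1) and 6 fell (among them Calm2, Calm3, Micu2, Orai3 and Stac2), and without Ctrl HFD 1 and 2 none of these 11 held (edgeR adjusted p 0.127 to 0.328). The 11 are 18.6% of the list, against 9.93% of all genes. They include scarce genes, with Ctrl chow means of 0.109 CPM for Slc8a3, 0.209 for Rrad, 0.405 for Ano1 and 1.04 for Stac2. For diet in LIRKO only Slc8b1, the gene of the mitochondrial sodium-calcium exchanger, was called (1.69%, all genes 2.03%). It went from 5.95 ± 0.817 CPM in LIRKO chow (SD, n = 4) to 12.6 ± 1.75 in LIRKO HFD (n = 3), a log2 change of 0.86 (SE 0.18, adjusted p = 0.0195), beside 0.64 (SE 0.14, adjusted p = 0.0280) in Ctrl. Neither Slc8b1 call held with the pairs summed (0.201 and 0.0588). The LIRKO call was lost without LIRKO chow 1 or 2 or any LIRKO HFD library (0.0539 to 0.103), and the Ctrl call without Ctrl HFD 1 and 2 (0.127) or any of Ctrl chow 1, 2 or 6 or Ctrl HFD 1 or 2 (0.0572 to 0.0840). The median log2 change of the list lay between -0.10 and -0.01 in the 4 comparisons.

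The genotype by diet interaction asks whether the genotype difference on HFD differs from that on chow. No gene of the set was called by edgeR or by DESeq2, against 0.00519% of all genes by edgeR and 42 genes in all by DESeq2. An unadjusted edgeR p under 0.05 was found for 7 of the 32. Of all genes 5.52% had such a p, and of those over 1 CPM 5.57%. Among all 49 tested genes of the set the number was 8, and 4 with the LIRKO chow pairs summed. These counts are a description and are not offered as evidence about the set. Cacna1g had the largest departure relative to its error, 1.40 (SE 0.39, adjusted p = 0.449), followed by Scn3b with 0.92 (SE 0.26, adjusted p = 0.465). The interaction was -0.75 (SE 0.27) for Scn3a, -1.10 (SE 0.48) for Cacng3 and -1.26 (SE 0.57) for Mcoln3, with adjusted p-values of 0.763, 0.873 and 0.875. So for none of these genes was the genotype difference shown to differ between diets.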

How the data were processed

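The deposited table holds counts, whole numbers of reads per Ensembl gene made by the authors with STAR and featureCounts on GRCm38, per the submitters' processing notes. Tool versions, strand setting and annotation release were not given in the sources used here. Symbols and coordinates come from GENCODE M21 (52489 of 53090 IDs matched, and the other 601 held at most 0.0176% of a library's counts). After filterByExpr on the groups, 19284 genes remained. In R 4.3.3, edgeR 4.0.16 (TMM, glmQLFit, glmQLFTest) was fitted to all 18 libraries with 1 coefficient per group, giving 5 two-sided comparisons (threshold 0.05, Benjamini and Hochberg). The common biological coefficient of variation was 0.314. The SE is the log2 change divided by the root of F. Total counts per library ran from 19490235 to 51714775.

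The 24 alternatives were DESeq2 1.42.0, its size factors in edgeR, no filter, LIRKO chow pairs summed, Ctrl HFD 1 and 2 left out, only the 2 groups compared, and each library left out in turn. Library values are given for each gene of at least 1 CPM called in any comparison, the most abundant gene of each subfamily and 19 listed islet channel genes. Genes under 1 CPM are named if called. Of the handwritten calcium handling list, called genes are named. Some genes of these sets are counted but not reported here by name. Members and lists were chosen with earlier results of these data known. Tests were tried on simulated data.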

Additional observations from a re-analysis of the deposited data

Results flagged for a closer look

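In 96 combinations of gene and group with 4 to 6 libraries, 1 library stood far from the others by Dixon's criterion in 3, and chance gives about 1 in 20. Cacng4 was at 1.72 CPM in Ctrl chow 4, against 0.403 to 0.727 in the other 5 libraries, and at 0.338 CPM in LIRKO chow 2, against 0.835 to 0.928 in the other 3. Trpm4 was at 36.3 CPM in Ctrl chow 4, against 18.6 to 24.3 in the other 5. Neither gene was called in any comparison.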

How the results depend on the processing

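No paired analysis was possible because the labels give no replicate numbers or pairing. Of 23 calls of a named channel gene in a comparison, 2 held under all alternatives (Scn3a and Cacng3 in LIRKO against Ctrl on chow) and 21 were lost under some. Cacng3 passed the 1 CPM limit only through its LIRKO groups, with a mean of 0.233 CPM in Ctrl chow, so its call is given as a description. Signs turned for 3 uncalled values: with each library left out in turn, diet in Ctrl ranged from -0.0873 (without Ctrl HFD 4) to 0.267 for Cacna1g and -0.358 (without Ctrl HFD 4) to 0.729 for Trpm1, and without Ctrl HFD 1 and 2, genotype on HFD gave -0.0121 for Cacna1g.

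Channel genes called, of all 49 tested, numbered 10 for genotype on chow, 3 for genotype on HFD, 9 for diet in Ctrl and 3 for diet in LIRKO. Leaving out 1 library gave 5 to 12, 0 to 4, 2 to 13 and 1 to 4. With the LIRKO chow pairs summed the counts were 3 for genotype on chow, 2 for diet in Ctrl and 0 for diet in LIRKO (8 at an unadjusted p under 0.05). Without Ctrl HFD 1 and 2 they were 0 for diet in Ctrl (13 unadjusted) and 5 in LIRKO. From the 2 groups alone they were 0 for genotype on HFD (10 unadjusted), 0 for diet in Ctrl (11 unadjusted) and 10 for diet in LIRKO. DESeq2 gave 5 for genotype on HFD, 10 for diet in Ctrl and 6 for diet in LIRKO. Without the filter, diet in Ctrl gave 4. The cause was not tested.

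All genes called numbered 993, 98, 1914, 392 and, for the interaction, 1. DESeq2 gave 1649, 316, 3959, 1059 and 42. Pairs summed gave 193, 54, 114, 7 and 0. Without Ctrl HFD 1 and 2 they were 1765, 193, 34, 1191 and 8. The 2 groups alone gave 1653, 19, 1 and 3403. Without the filter, diet gave 457 in Ctrl and 250 in LIRKO. Leaving out 1 library gave 431 to 1126, 10 to 162, 69 to 3877, 55 to 502 and 0 to 3.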
